A study of Mus musculus with 12 samples.

Results

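The 10 genes described here encode the proteins that hand bacterial lipopolysaccharide (LPS) to its receptor TLR4 and carry the signal of that receptor into the macrophage. They were chosen by name: the LPS coreceptors Cd14 and Ly96, the TLR adaptors Myd88, Tirap, Ticam1 and Ticam2, and the kinase family members Irak1, Irak2, Irak3 and Irak4. Each was listed in 1 row of every expression table, among 23361 gene symbols in all, and all 10 were among the 11191 rows that reached at least 1 FPKM in at least 1 sample. FPKM is the number of fragments per kilobase of transcript relative to the mapped total of the library, so it can be set side by side between genes, while between samples it also moves with the makeup of the whole RNA pool.

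CD14 binds LPS at the cell surface and passes it to MD-2, the product of Ly96, which holds the lipid in the pocket of the TLR4 complex. At the plasma membrane TIRAP recruits MyD88, and MyD88 gathers IRAK4, IRAK1 and IRAK2 into a complex that leads to NF-kB and the inflammatory cytokines. From endosomes TRAM, the product of Ticam2, recruits TRIF, the product of Ticam1, which leads to type I interferon, and CD14 also promotes the entry of TLR4 into that compartment. IRAK-M, the product of Irak3, is a pseudokinase that restrains the MyD88 branch and is known as a factor of endotoxin tolerance.

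Poly-A RNA was sequenced from bone marrow-derived macrophages (BMDMs) of wild-type mice aged 8 to 12 weeks, grown in M-CSF from L929 cell supernatant. Cells in the control group received neither agent, the IL-4 group received IL-4 at 20 ng/ml for 24 h, the LPS group received LPS at 100 ng/ml for 3 h, and the IL-4+LPS group received IL-4 for 24 h and then LPS for 3 h. Each of the 4 groups held 3 samples. The LPS dose is that of the labels, and the study's methods give it in another unit. The study describes its LPS RNA-seq fold changes as averages over 3 individual animals from independent experiments, with fewer experiments than animals. The labels do not say which samples share an animal or an experiment, so the p-values measure the spread between these samples, and they do not state whether the cells given IL-4 alone were collected with or before those given LPS.

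Across the 12 samples the relative depth, read from the value of 1 fragment in low genes and set to 1 in control replicate 1, ran from 0.991 to 3.30. All 7 macrophage markers reached 1 FPKM in every sample, and their summed level was 19363 to 20792 FPKM in control, 7819 to 8038 in IL-4, 16124 to 17184 in LPS and 7228 to 7406 in IL-4+LPS. Most of that sum was Lyz2, at 15344 to 16507 FPKM in control and 4734 to 5051 in IL-4. The other 6 markers summed to 4018 to 4285 FPKM in control, 2856 to 3204 with IL-4 alone, 3638 to 3748 with LPS alone and 2899.7 to 3046 with both. Of the 6 listed neutrophil and granulocyte precursor markers 5 were found, all above 1 FPKM in every sample, and they summed to 314 to 839 FPKM in control, 213 to 397 in IL-4, 501 to 1016 in LPS and 420 to 836 in IL-4+LPS. The part of such cells in the results was not tested. The listed T cell, B cell, fibroblast and mast cell markers stayed under 1 FPKM in every sample, Mcpt4 at 0, and of the dendritic cell markers only Zbtb46 passed it, at up to 2.83 FPKM. In bulk RNA, fewer cells of a type and less RNA per cell cannot be told apart, here as in every result that follows.

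The promoters of the 3 genes below that LPS changed most among those with a matched start, and of Irak1, which went the other way, are shown because the genes of a single pathway moved in opposite directions. Each is the 250 bases before the RefSeq start in GRCm38.p6, 5′ to 3′ on the strand of the gene. The interval is chr9:119340019-119340268 on the minus strand for Myd88, chr6:113638217-113638466 on the plus strand for Irak2, chr10:120201598-120201847 on the minus strand for Irak3 and chrX:74023922-74024171 on the minus strand for Irak1. Capitals mark motif matches.
Myd88: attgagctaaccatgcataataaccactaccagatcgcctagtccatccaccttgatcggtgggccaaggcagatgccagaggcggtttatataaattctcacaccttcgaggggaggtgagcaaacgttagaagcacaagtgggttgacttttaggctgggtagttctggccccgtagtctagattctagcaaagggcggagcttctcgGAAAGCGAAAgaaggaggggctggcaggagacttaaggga
Irak2: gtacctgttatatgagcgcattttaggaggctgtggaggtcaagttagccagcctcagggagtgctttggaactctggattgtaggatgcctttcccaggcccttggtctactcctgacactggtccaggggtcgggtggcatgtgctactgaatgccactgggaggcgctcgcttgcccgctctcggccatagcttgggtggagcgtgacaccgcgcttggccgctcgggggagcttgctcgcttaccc
Irak3: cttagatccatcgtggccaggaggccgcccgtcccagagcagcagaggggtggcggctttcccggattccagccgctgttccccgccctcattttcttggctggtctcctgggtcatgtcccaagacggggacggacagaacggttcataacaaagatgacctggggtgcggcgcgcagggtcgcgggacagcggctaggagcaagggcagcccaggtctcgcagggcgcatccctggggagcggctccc
Irak1: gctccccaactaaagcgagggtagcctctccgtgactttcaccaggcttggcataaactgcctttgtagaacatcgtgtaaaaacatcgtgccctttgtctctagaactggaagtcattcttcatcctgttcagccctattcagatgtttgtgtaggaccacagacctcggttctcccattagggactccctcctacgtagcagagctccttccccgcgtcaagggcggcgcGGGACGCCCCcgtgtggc
The motifs below were searched on both strands, counting overlaps once per promoter. These were the NF-kB consensus, the interferon response element core (GAAA, any 2 bases, GAAA), the STAT element (TTC and GAA with any 4 bases between) and the AP-1 element TGANTCA. RefSeq entries of 7 genes were searched, those of Myd88, Tirap, Ticam1, Irak1, Irak2, Irak3 and Irak4. Cd14, Ly96 and Ticam2 were not searched. For Tirap, Irak1 and Irak3, 2 starts were listed and 1 window was used. The start used for Tirap lay 326 bases from the edge of its locus. The interferon response core was found in 1 of these 7, in Myd88 at 40 to 31 bases before the start, and in 2.98% of 32851 promoters of the same length. The NF-kB consensus was also found in 1 of 7, in Irak1 at 18 to 9 bases before the start, against 7.25% of promoters. Irak4 fell with LPS by more than Irak1, and its window, not shown here, held no match to any motif searched. The STAT element with 4 bases between, which 5.85% of promoters held, was found in none of the 7. Nor was the AP-1 element, which 6.75% held. Other spacings of TTC and GAA were not searched, and the Myd88 window holds them at a shorter spacing (ttctcgGAA). As Cd14, Ly96 and Ticam2 rose with LPS and were not searched, whether the genes that rose share a motif cannot be read from this search. A match or its absence describes these windows only.

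In untreated cells the coreceptor transcripts and Myd88 were the most abundant of the 10. Mean levels in control ran from 153 FPKM for Cd14 through 51.9 for Myd88, 38.7 for Ly96, 29.1 for Irak1, 17.0 for Irak4 and 13.9 for Ticam1 to 4.94 for Tirap. Irak2, Irak3 and Ticam2 lay together at 11.6 FPKM each, with overlapping ranges. Under LPS the order was Cd14, Myd88, Irak2, Ly96 and Irak3, and Irak4, the kinase at the head of the cascade, had moved to the last place beside Tirap, their ranges overlapping. In IL-4 alone Cd14 had dropped to the sixth place, where its range overlapped that of Irak4, and Irak3 shared the lowest place with Tirap.

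**Figure D1:**
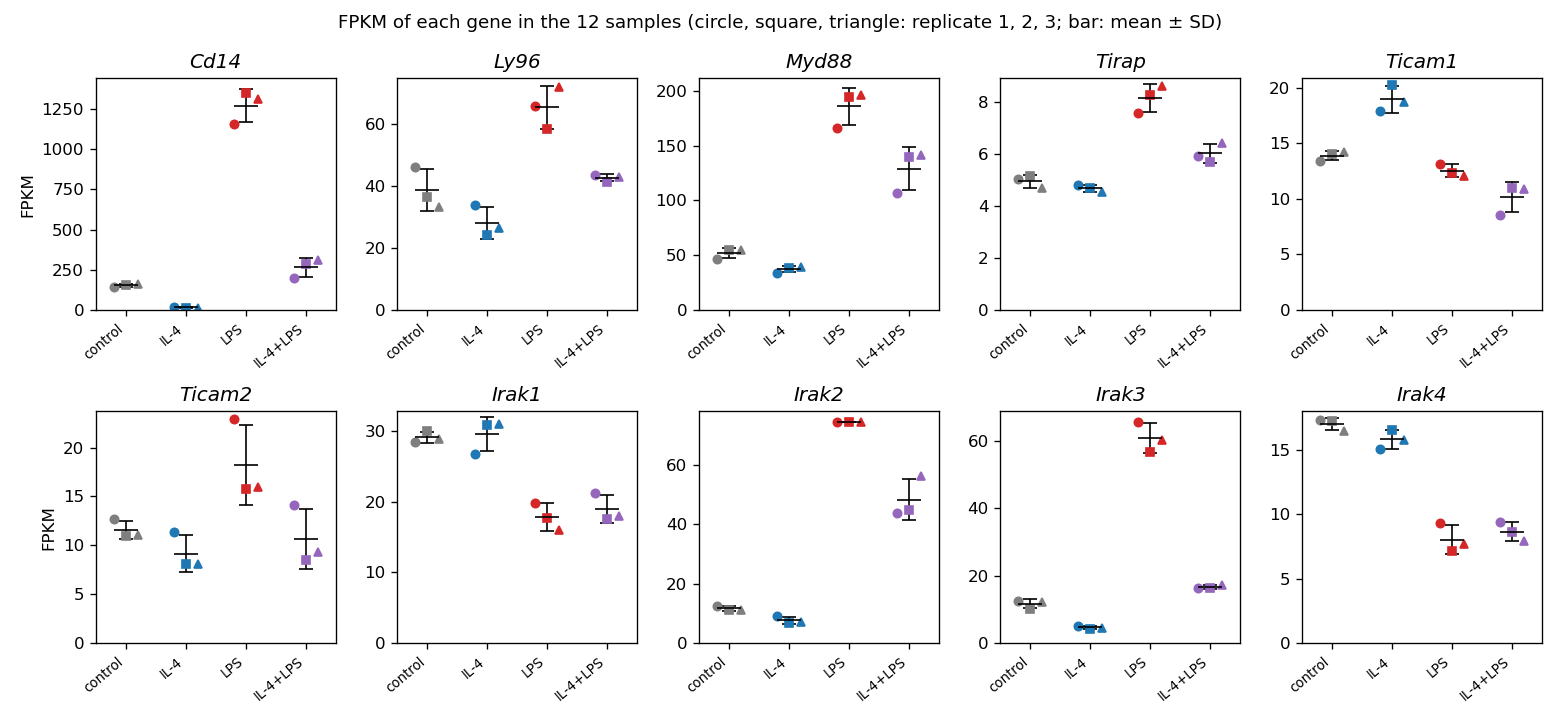
FPKM (vertical axis, linear, from 0, scaled to each gene) of the 10 genes in the 4 treatment groups, with circles, squares and triangles for replicates 1, 2 and 3 and bars for the mean ± SD of 3 samples. In Cd14, Myd88, Irak2 and Irak3 the 4 groups do not overlap and LPS is highest, in Irak1 and Irak4 both LPS groups lie below both groups without LPS, and in Ticam1 the IL-4 group is highest and the IL-4+LPS group lowest.

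The response to LPS was compared first, by limma on log2(FPKM + 1) with Benjamini-Hochberg adjustment over all expressed rows and a threshold of 0.05. In LPS against control, 7 of the 10 genes rose, namely Cd14, Ly96, Myd88, Tirap, Ticam2, Irak2 and Irak3, while Irak1 and Irak4 fell and Ticam1 did not pass. Of all rows tested, 16.9% rose and 57.7% fell in this comparison. The median log2 fold change of the 10 was 0.69, against -0.44 over all rows. For median scaling, each sample was scaled to its median over the rows above 1 FPKM in all 12 samples. This moved the median over all rows to -0.14 and the calls to 26.5% higher and 39.8% lower. Of the 10 genes, 9 were still past the threshold. The scaling moved the value of Tirap from 0.62 to 0.94, of Ticam2 from 0.60 to 0.94, of Irak1 from -0.68 to -0.33 and of Irak4 from -1.001 to -0.66. After IL-4, LPS raised 6 of the 10 and lowered 3 (IL-4+LPS against IL-4), with 15.0% of all rows higher and 57.9% lower, or 23.5% and 36.3% after median scaling. The median of the 10 was then 0.45, against -0.41 over all rows. There, median scaling moved Ly96 from 0.60 to 0.95, Tirap from 0.30 to 0.61, Ticam1 from -0.84 to -0.51, Irak1 from -0.62 to -0.27 and Irak4 from -0.81 to -0.47, all still past the threshold.

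The effect of IL-4 was measured in cells without LPS and in cells given LPS. Each group enters several of the comparisons, so their values are set side by side and are not separate support for each other. Without LPS, 5 genes fell, namely Cd14, Ly96, Myd88, Irak2 and Irak3, and Ticam1 rose, where 21.0% of all rows fell and 16.0% rose. The median log2 fold change of the 10 was -0.39, against -0.05 over all rows. With LPS, IL-4+LPS samples were lower than LPS samples in 8 of the 10 genes and higher in none, where 15.8% of all rows were lower and 15.0% higher. The median was -0.57, against -0.03 over all rows. Samples with the same replicate number deviated together in this comparison, and with the number as a block 8 genes were again lower, with 23.8% of all rows lower and 20.4% higher. The 2 that did not pass with LPS were Irak1 and Irak4.

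**Figure D2:**
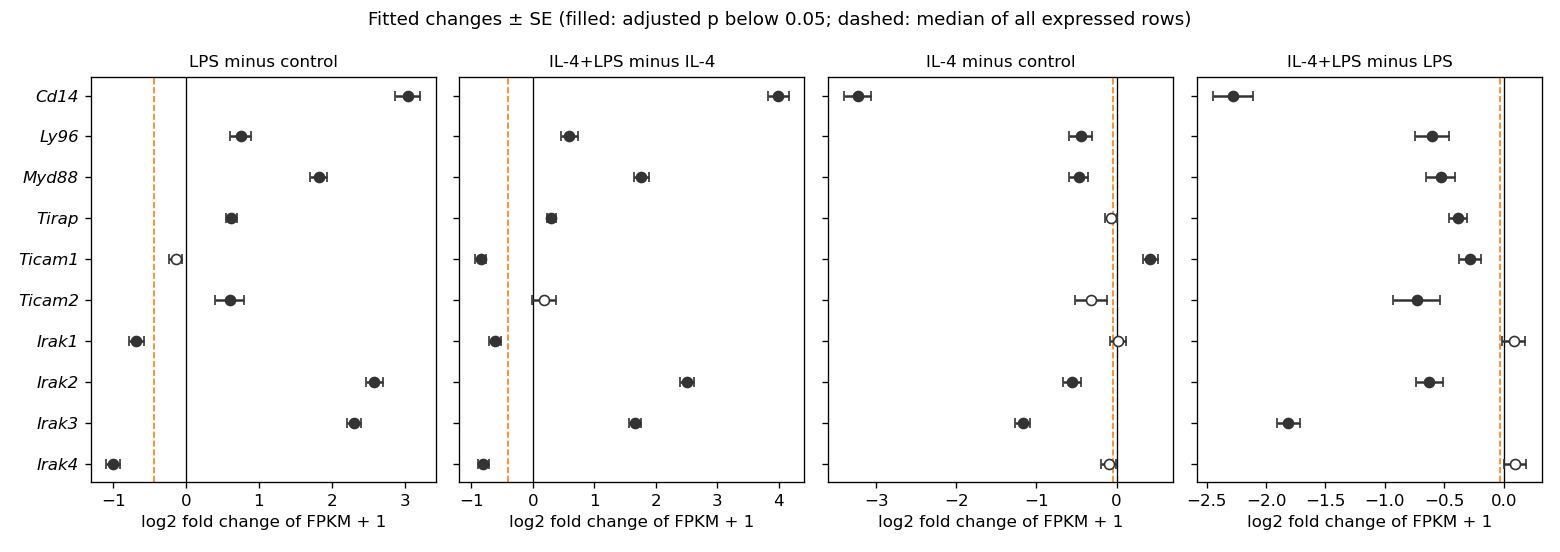
Log2 fold changes of FPKM + 1 (horizontal axes, scaled to each panel) ± SE of the 10 genes (vertical axis) in 4 comparisons, with filled points for an adjusted p below 0.05 and a dashed line at the median of all expressed rows. For both LPS comparisons most points lie right of zero while the median of all rows is at -0.44 and -0.41, and for IL-4+LPS minus LPS 8 filled points lie left of zero with Irak1 and Irak4 open.

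Cd14 covered the widest range of the 10 genes, 6.27 log2 units between its lowest and highest group. Like the other 9 it is annotated as protein coding, with 2 exons, on chromosome 18 (36725067 to 36726654 in mm10, minus strand). Its level was 144, 153 and 163 FPKM in control replicates 1 to 3, 19.3, 13.5 and 14.02 with IL-4 alone, 1155, 1348 and 1310.4 with LPS alone and 198, 287 and 312 with both. No groups overlapped, and the highest IL-4 sample was far below the lowest control. LPS raised Cd14 by a log2 fold change of 3.04 (SE 0.17, adjusted p = 1.14e-07), from 153 ± 9.38 to 1271 ± 102 FPKM (SD, n = 3). IL-4 lowered it (-3.23 on the log2 scale, SE 0.17, adjusted p = 4.47e-07), to 15.6 ± 3.19 FPKM or 10.2% of the control mean, the largest fall by IL-4 among the 10. In cells given LPS, IL-4 left it at 266 ± 59.8 FPKM or 20.9% of the LPS mean (log2 fold change -2.28, SE 0.17, adjusted p = 4.6e-06). IL-4+LPS samples therefore still stood above untreated cells.

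After IL-4 the LPS response of Cd14 was larger as a fold and smaller in FPKM. LPS multiplied the mean 8.29-fold without IL-4 and 17.0-fold after IL-4, and the interaction on the log2 scale was 0.95 (SE 0.24, adjusted p = 0.0349). In FPKM, LPS added 1118 without IL-4 and 250.04 in the IL-4 arm. The interaction lost its call in 10 of the 12 fits that left out 1 sample each, with adjusted p up to 0.0922, while its value ran from 0.83 to 1.15. Those samples were each control, each LPS sample, replicates 2 and 3 of IL-4, and replicates 2 and 3 of IL-4+LPS. Without an expression filter its adjusted p was 0.0501.

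Ly96 moved in the same directions as Cd14 over a narrower range. It lies on chromosome 1 (16688456 to 16709605, plus strand, 5 exons). Its FPKM in replicates 1 to 3 was 46.2, 36.5 and 33.3 in control, 34.0, 24.1 and 26.3 with IL-4 alone, 65.8, 58.2 and 71.97 with LPS alone and 43.5, 41.3 and 43.0 with both. The LPS samples stood above all others, whereas IL-4 overlapped control and IL-4+LPS lay inside the control range. LPS raised Ly96 by 0.75 (SE 0.14, adjusted p = 0.000693) without IL-4 and by 0.60 (SE 0.14, adjusted p = 0.00326) after it. With LPS, the IL-4 arm was lower (-0.60, adjusted p = 0.0091). Without LPS it was also lower (-0.45, adjusted p = 0.0309), a call that was lost in the fit of the compared groups alone (adjusted p = 0.0879) and without control replicate 1 or 2 or IL-4 replicate 2 or 3 (adjusted p up to 0.117). Without LPS, the IL-4 mean was 72.6% of the control mean. With LPS, the IL-4+LPS mean was 65.2% of the LPS mean.

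Among the adaptors Myd88 was the most abundant and rose most with LPS. It lies on chromosome 9 (119335988 to 119340040, minus strand, 6 exons), and 11.4% of its exon bases are overlapped by Acaa1a on the opposite strand, which these unstranded libraries cannot separate. Acaa1a itself had a log2 fold change of -0.06 with LPS (adjusted p = 0.641). The level of Myd88 in replicates 1 to 3 was 46.5, 54.7 and 54.6 FPKM in control, 34.1, 37.8 and 39.4 with IL-4 alone, 166, 195 and 197 with LPS alone and 107, 139 and 141 with both. The groups did not overlap, in the order IL-4, control, IL-4+LPS and LPS. LPS raised it by 1.82 (SE 0.12, adjusted p = 3.44e-07) without IL-4 and 1.76 (SE 0.12, adjusted p = 5.25e-07) after IL-4, that is 3.58-fold and 3.48-fold. IL-4 lowered it (-0.47 on the log2 scale, adjusted p = 0.0115) without LPS and also (-0.53, adjusted p = 0.00732) with LPS, to 71.4% and 69.5% of the matched group. The difference between these effects was -0.06 (SE 0.17, adjusted p = 0.887).

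Tirap, which brings MyD88 to the membrane, was the least abundant adaptor in every group. It lies on chromosome 9 (35184391 to 35200291, minus strand, 7 exons), with 10.6% of its exon bases overlapped by Gm39318 and Srpr on the opposite strand. Srpr rose with IL-4 alone (0.47, adjusted p = 0.0203) and did not pass in the other comparisons, and its part in the reads of Tirap was not tested. The level of Tirap was 5.03, 5.13 and 4.67 FPKM in control, 4.81, 4.68 and 4.53 with IL-4 alone, 7.56, 8.26 and 8.62 with LPS alone and 5.92, 5.68 and 6.42 with both. Control and IL-4 overlapped, and both LPS groups stood above them and apart from each other. LPS raised Tirap by 0.62 (SE 0.07, adjusted p = 1.89e-05) without IL-4 and by 0.30 (SE 0.07, adjusted p = 0.00307) after it, or by 1.12 and 0.74 after quantile normalization. IL-4+LPS was lower than LPS (-0.38, SE 0.07, adjusted p = 0.00241), while IL-4 alone gave -0.07 (adjusted p = 0.512). The difference between these IL-4 effects, -0.32 (SE 0.10), did not pass (adjusted p = 0.081), although it did without LPS replicate 1 (-0.36, adjusted p = 0.0489).

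Ticam1, encoding TRIF, was the only one of the 10 that rose with IL-4 alone. It lies on chromosome 17 (56269462 to 56276767, minus strand, 2 exons). Its level in replicates 1 to 3 was 13.4, 14.1 and 14.2 FPKM in control, 17.8, 20.2 and 18.7 with IL-4 alone, 13.2, 12.3 and 12.0 with LPS alone and 8.56, 10.97 and 10.9 with both. No groups overlapped, and the highest and lowest groups were both groups that received IL-4. IL-4 raised it by 0.42 (SE 0.09, adjusted p = 0.00509), to 136.4% of control. LPS after IL-4 lowered it (-0.84 on the log2 scale, SE 0.09, adjusted p = 1.42e-05), whereas LPS without IL-4 gave -0.14 (adjusted p = 0.185), or 0.20 (adjusted p = 0.088) after median scaling. The interaction was -0.70 (SE 0.13, adjusted p = 0.00745), and it passed in every fit that left out 1 sample, from -0.76 to -0.60. The lower level with both agents than with LPS alone (-0.28, adjusted p = 0.039) was less stable. That call was lost in 7 of those 12 fits, namely without any of the LPS samples, control replicate 2 or 3, IL-4 replicate 3 or IL-4+LPS replicate 1, with adjusted p up to 0.11, and in the fit of those groups alone (adjusted p = 0.123).

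Ticam2, encoding TRAM, had the largest fitted error of the 10. It lies on chromosome 18 (46558231 to 46574533, minus strand, 3 exons), and 19.9% of its exon bases are overlapped by Tmed7 on the same strand. Tmed7 had a log2 fold change of -0.06 with LPS (adjusted p = 0.582) and fell with LPS after IL-4 (-0.30, adjusted p = 0.0198). The level of Ticam2 was 12.7, 10.9 and 11.1 FPKM in control replicates 1 to 3, 11.3, 8.06 and 8.04 with IL-4 alone, 22.9, 15.7 and 16.0 with LPS alone and 14.2, 8.50 and 9.30 with both. Replicate 1, the shallowest sample of each group, was the highest in all 4 groups, and the part of depth was not tested. LPS stood above every other group, and the remaining groups overlapped. LPS raised Ticam2 by 0.60 (SE 0.20, adjusted p = 0.0195) without IL-4 and gave 0.18 (adjusted p = 0.422) after it. IL-4+LPS was lower than LPS (-0.73, SE 0.20, adjusted p = 0.0183). Neither call held throughout: the rise with LPS had an adjusted p of 0.0789 without LPS replicate 1, 0.0565 without control replicate 2 and 0.055 without control replicate 3. The lower level in IL-4+LPS had adjusted p up to 0.0734 without LPS replicate 1 or without IL-4+LPS replicate 2 or 3. It stayed past the threshold with the replicate block.

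Of the summed adaptor FPKM, Myd88 made up 63.0% ± 2.66 in control, 53.1% ± 2.86 with IL-4 alone, 82.6% ± 2.95 with LPS alone and 82.6% ± 3.25 with both (SD, n = 3). Ticam1 made up 16.9% ± 0.373, 27.1% ± 1.30, 5.58% ± 0.604 and 6.49% ± 0.172 in the same order. By transcript, Myd88 thus held its smallest share after IL-4 alone and the same mean share in both LPS groups, as a description without a test.

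The kinases divided into a pair that rose with LPS and a pair that fell. Irak2, which sustains the MyD88 signal, lies on chromosome 6 (113638467 to 113695027, plus strand, 13 exons). Its level in replicates 1 to 3 was 12.5, 11.1 and 11.2 FPKM in control, 9.002, 6.81 and 7.04 with IL-4 alone, 74.6, 74.4 and 74.6 with LPS alone and 43.8, 44.8 and 56.2 with both. The 4 groups did not overlap. LPS raised Irak2 by 2.58 (SE 0.11, adjusted p = 2.09e-08) without IL-4 and by 2.51 (SE 0.11, adjusted p = 2.74e-08) after it, 6.42-fold and 6.33-fold. IL-4 lowered it (-0.56 on the log2 scale, adjusted p = 0.00346) without LPS and also (-0.63, adjusted p = 0.00197) with LPS, which left 65.7% and 64.8% of the matched group. Their difference was -0.07 (SE 0.16, adjusted p = 0.847). Of the exon bases of Irak2, 6.13% are overlapped by Gm43963 on the opposite strand, whose part in its values was not tested. The overlapped share was 3.16% for Irak3 and 1.98% for Irak1.

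Irak3, encoding the inhibitory IRAK-M, was the kinase that IL-4 lowered most. It lies on chromosome 10 (120141654 to 120201537, minus strand, 12 exons). Its level was 12.5, 10.1 and 12.1 FPKM in control replicates 1 to 3, 5.02, 4.13 and 4.56 with IL-4 alone, 65.7, 56.8 and 60.3 with LPS alone and 16.4, 16.2 and 17.3 with both. No groups overlapped, and IL-4+LPS lay much nearer to control than to LPS. LPS raised Irak3 by 2.30 (SE 0.09, adjusted p = 1.3e-08) without IL-4 and by 1.66 (SE 0.09, adjusted p = 1.36e-07) after it. IL-4 lowered it (-1.17 on the log2 scale, SE 0.09, adjusted p = 6.92e-06) to 39.5% of control, and in LPS-exposed cells (-1.81, SE 0.09, adjusted p = 3.92e-07) to 27.3% of LPS. The interaction was -0.64 (SE 0.13, adjusted p = 0.0132). Leaving out single samples moved it between -0.70 and -0.55, with adjusted p up to 0.0374. In FPKM, LPS added 49.3 without IL-4 and 12.0 in the IL-4 arm. The interaction had the opposite sign for Cd14 and did not pass for Irak2, and no test compared these genes with each other.

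Irak1 and Irak4, the kinases with the most transcript before stimulation, fell with LPS and did not pass for IL-4. Irak1 lies on chromosome X (74013914 to 74023921, minus strand, 14 exons). Its level was 28.5, 30.1 and 28.9 FPKM in control, 26.8, 30.9 and 31.1 with IL-4 alone, 19.8, 17.7 and 16.0 with LPS alone and 21.3, 17.6 and 18.0 with both. All 6 samples with LPS lay below all 6 without. LPS lowered it (-0.68 on the log2 scale, SE 0.10, adjusted p = 8.69e-05) without IL-4 and also (-0.62, SE 0.10, adjusted p = 0.000205) after it. Relative to the median of all rows these were -0.24 and -0.21. IL-4 gave 0.02 (adjusted p = 0.898) without LPS and 0.08 (adjusted p = 0.56) with LPS, each with an SE of 0.10.

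Irak4 lies on chromosome 15 (94543660 to 94568316, plus strand, 12 exons), with 11.5% of its exon bases overlapped by Twf1 on the opposite strand. Its level was 17.4, 17.3 and 16.5 FPKM in control, 15.1, 16.6 and 15.8 with IL-4 alone, 9.32, 7.16 and 7.67 with LPS alone and 9.38, 8.67 and 7.91 with both. Again the samples with LPS all lay below those without. LPS lowered it (-1.001 on the log2 scale, SE 0.09, adjusted p = 3.68e-06) without IL-4 and also (-0.81, SE 0.09, adjusted p = 2.19e-05) after IL-4, which were -0.56 and -0.40 relative to the median of all rows. Twf1 had a log2 fold change of -0.03 with LPS (adjusted p = 0.802), but fell with LPS after IL-4 (-0.22, adjusted p = 0.0467), and IL-4 lowered it in LPS-exposed cells (-0.40, adjusted p = 0.00603); its part in the values of Irak4 was not tested. For Irak4, IL-4 gave -0.10 (adjusted p = 0.448) without LPS and 0.10 (adjusted p = 0.474) with it.

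The makeup of the IRAK transcripts changed with these opposite moves. Their summed level was 69.3 ± 1.31 FPKM in control, 57.6 ± 1.42 with IL-4 alone, 161 ± 7.10 with LPS alone and 92.5 ± 6.20 with both (SD, n = 3). Irak1 and Irak4 made up 42.0% ± 1.85 and 24.6% ± 0.593 of the sum in control, and 11.05% ± 0.858 and 4.98% ± 0.472 in LPS. Irak2 took 46.2% ± 1.94 of the sum in LPS and 52.0% ± 4.20 in IL-4+LPS, against 16.7% ± 0.793 in control. The share of the inhibitory Irak3 was 16.7% ± 1.70 in control, 7.94% ± 0.963 with IL-4 alone, 37.7% ± 1.23 with LPS alone and 18.0% ± 0.595 with both. After IL-4, LPS-exposed cells thus had an IRAK pool in which Irak2 had the largest share and the share of Irak3 was close to that in untreated cells, as a description of transcript levels.

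**Figure D3:**
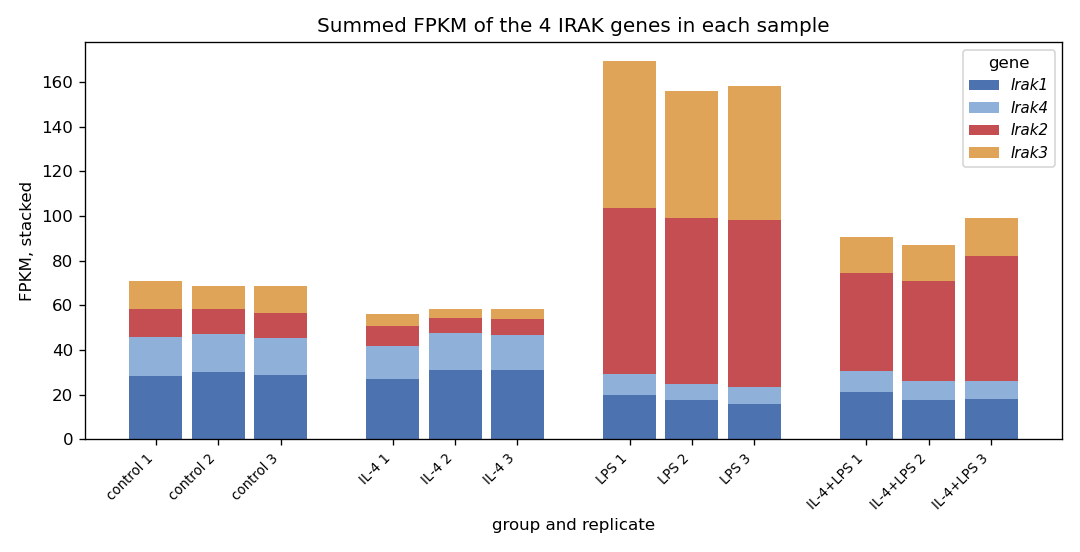
Stacked bars of the FPKM (vertical axis, linear, from 0) of Irak1, Irak4, Irak2 and Irak3 in each of the 12 samples, grouped by treatment. The sum is 69.3 FPKM on average in control, 161 in LPS and 92.5 in IL-4+LPS. The Irak3 segment is largest in the LPS bars and smallest in the IL-4 bars. In the IL-4+LPS bars the Irak3 segment is larger than in control and far smaller than in LPS.

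Whether IL-4 acted alike without and with LPS was tested by the interaction term. It passed for 3 of the 10 genes, above zero for Cd14 and below zero for Ticam1 and Irak3, where 4.58% of all rows passed above zero and 4.63% below. The median interaction of the 10 was -0.11, against 0.04 over all rows. For Ly96 the interaction was -0.15 (SE 0.20, adjusted p = 0.713), for Ticam2 -0.41 (SE 0.28, adjusted p = 0.431), for Irak1 0.06 (SE 0.14, adjusted p = 0.831) and for Irak4 0.20 (SE 0.13, adjusted p = 0.42). In the genes that did not pass, effects of the size of these errors were not detectable. Larger effects could also be missed, as the -0.32 of Tirap (SE 0.10) did not pass (adjusted p = 0.081).

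**Figure D4:**
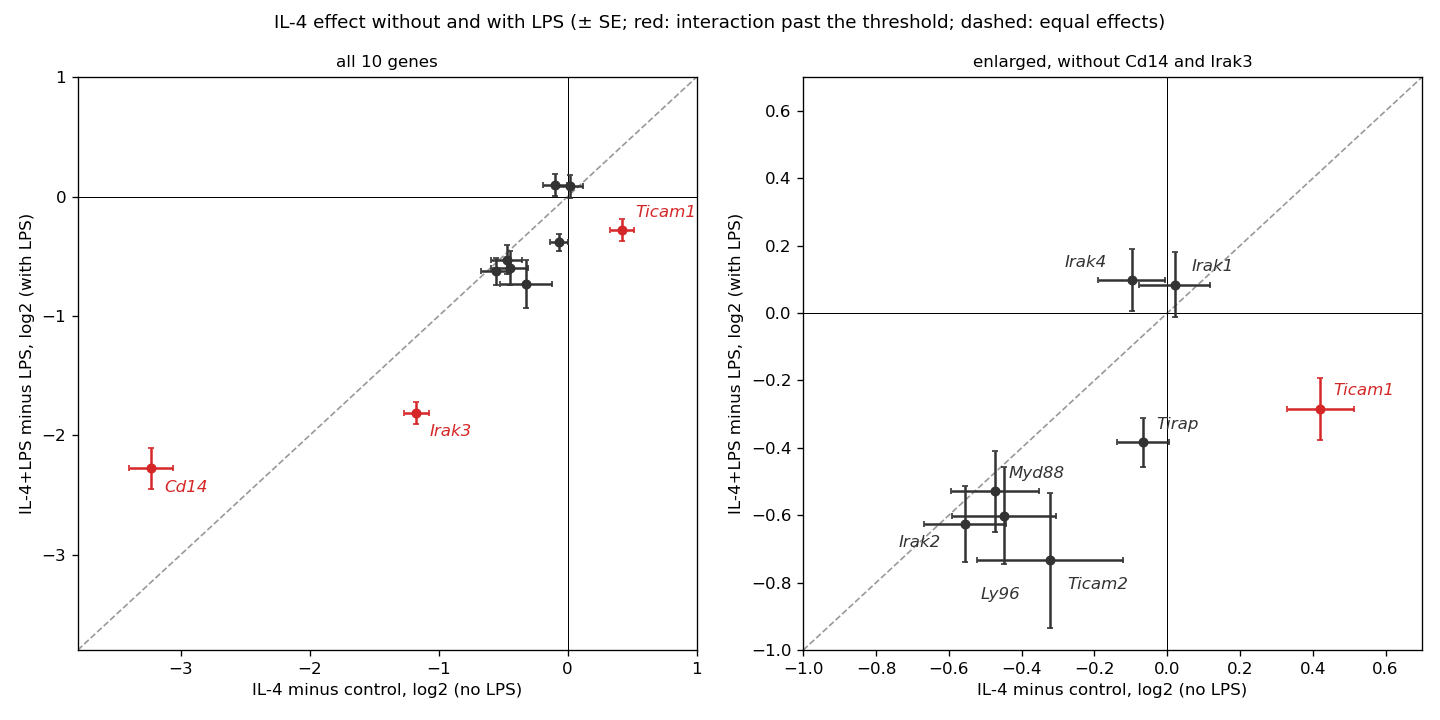
IL-4 effect without LPS (horizontal axis) against IL-4 effect with LPS (vertical axis), both log2 fold changes of FPKM + 1 ± SE, for all 10 genes (left) and enlarged for the 8 other than Cd14 and Irak3 (right). Red marks the 3 genes whose interaction passed: Cd14 lies above the dashed line of equal effects at -3.23 and -2.28, and Irak3 at -1.17 and -1.81 and Ticam1 at 0.42 and -0.28 lie below it.

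As a list, 27 other genes of the TLR4 pathway were counted, of which 24 were tested and Lbp, Sigirr and Sarm1 stayed under 1 FPKM in every sample. LPS raised 7 of the 24 and lowered 7, where 16.9% of all rows rose and 57.7% fell, and their median log2 fold change was -0.07 beside the -0.44 of all rows. Among those that rose were Peli1, a ubiquitin ligase that acts on IRAK proteins, by 3.69, Ikbke, the IKK-related kinase of the interferon branch, by 1.998, and Tab2, an adaptor of TAK1, by 1.69. Among those that fell were Tab1 (-1.89), which encodes the activator of TAK1, Peli2 (-1.62) and the receptor gene Tlr4 itself (-1.20). After IL-4, LPS raised 7 and lowered 9, where 15.0% of all rows rose and 57.9% fell. Again Peli1 (3.74), Ikbke (2.03) and Tab2 (1.64) were highest and Tlr4 (-1.73), Tab1 (-1.60) and Peli2 (-0.96) lowest.

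Tlr4 had 25.2, 21.6 and 22.1 FPKM in control replicates 1 to 3, 33.3, 20.4 and 23.2 with IL-4 alone, 13.5, 7.51 and 8.15 with LPS alone and 10.2, 5.64 and 5.54 with both. Samples with LPS lay below those without, and replicate 1, the shallowest sample, was the highest in each group. Its fall with LPS passed without IL-4 (adjusted p = 0.00166) and after it (adjusted p = 0.00015). IL-4 gave 0.12 (SE 0.26, adjusted p = 0.749) without LPS and -0.40 (SE 0.26, adjusted p = 0.278) with LPS. With the replicate number as a block, the comparison with LPS passed (-0.40, SE 0.11, adjusted p = 0.02), Tlr4 being lower in IL-4+LPS than in the LPS sample of the same number in all 3 pairs.

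IL-4 alone lowered 10 of the 24 and raised 1, with a median of -0.25, where 21.0% of all rows fell and 16.0% rose with a median of -0.05. The largest falls were those of Ikbke (-1.16), Pik3ap1 (-1.13), which encodes the PI3K adaptor BCAP, and Peli2 (-1.08), and the rise was that of Ikbkg (0.27), encoding the IKK subunit NEMO. In LPS-exposed cells IL-4 lowered 7 and raised 1, with a median of -0.26, where 15.8% of all rows were lower and 15.0% higher with a median of -0.03. With the replicate block it lowered 15 and raised 1, where 23.8% of all rows were lower and 20.4% higher. Ikbke (-1.12), Pik3ap1 (-1.07) and Tab2 (-0.63) were the lowest, and Cd180, a TLR4-related receptor of B cells and macrophages, rose by 0.39 (adjusted p = 0.0462, or 0.123 after quantile normalization). The interaction passed for Cd180 (1.03, adjusted p = 0.00632) and Ube2n, encoding an E2 enzyme that builds ubiquitin chains with TRAF6 (-0.39, adjusted p = 0.0433, or 0.0617 after median scaling). Of all rows, 4.58% passed the interaction above zero and 4.63% below.

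For the 3 genes with the widest range, the 3 expressed rows whose log2 values followed them most closely over the 12 samples were listed by Pearson r. Il13ra1, a chain of the receptor for IL-13 and IL-4, had the highest likeness to Cd14 (r = 0.996), with means of 4.0 FPKM in control, 1.19 with IL-4 alone, 12.5 with LPS alone and 5.72 with both. Synj1 (0.989) and Kbtbd2 (0.985) followed. Irak3 was most like Zfp719, Lrch1 and Ednrb (r = 0.991, 0.991 and 0.99), and Ednrb, an endothelin receptor, had means of 8.48, 3.35, 46.7 and 11.5 FPKM in the same order. Irak2 was most like the transcription factors Klf6 (0.997) and Ikzf1 (0.996) and Fam102b (0.996). The 12 points share 4 group means, so such values are a description of pattern.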

How the data were processed

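Each of the 12 samples had 1 deposited table of FPKM values, which the authors computed from poly-A selected, unstranded, paired reads of 100 bases with TopHat2 2.0.7 and Cufflinks 2.0.2 on mm10, per the submitters' processing notes and the study's methods. The gene annotation was not given in the sources used here. FPKM is relative to all mapped fragments of a sample, so a shift in RNA composition moves every gene, and the tables hold no counts, so no counting interval was formed. The approximate depth was read from the value of 1 fragment in low genes.

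Tables were joined on symbol, locus and start site (23847 rows), and rows with at least 1 FPKM in at least 1 sample were kept (11191). Values were taken as log2(FPKM + 1), which understates changes of low genes, and fitted in a group-means model over all 12 samples with limma 3.58.1 in R 4.3.3 (eBayes with intensity trend), two-sided, with Benjamini-Hochberg adjustment within each of 5 contrasts and a threshold of 0.05. The fit was tested on simulated data with independent errors, in which 200 of 11191 rows were changed by 1 log2 unit in the LPS group. It recovered 87% of these rows, and 5.95% of its calls were false. Deviations shared between samples were not simulated. The interaction subtracts the LPS response of cells without IL-4 from that of cells pretreated with it. Levels are mean ± SD of 3 samples. Fold values are ratios of mean FPKM.

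Replicate numbers were checked as pairs through the correlation of deviations from the group means. Between LPS and IL-4+LPS the pairs had r = 0.386, 0.181 and 0.119, all over 0.1, so the blocked fit is given for that comparison. In no other comparison did every pair pass 0.1. The labels give only a number.

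The 10 genes, the list of 27 other pathway genes and the markers were chosen with earlier results of these data known. All 10 are named. Of the other list Tlr4 is named throughout, with up to 3 genes of the largest change in each direction per contrast among those past the threshold. Likeness is given for the 3 genes with the widest range of group means. Adgre1 and Spi1 were listed as Emr1 and Sfpi1, and Ly6g was not found. A further marker list is not reported here. Promoters are from RefSeq (GRCm38.p6), and exon overlaps from GENCODE models. Alternatives were a pseudocount of 0.1, no filter, a stricter filter (3 samples with at least 1 FPKM), median scaling or quantile normalization, no intensity trend, only the compared groups, the replicate number as a block, a per-gene Tukey test, replicates 2 and 3 only, and each sample left out. Plots were made in Python 3.11.15 with matplotlib 3.10.9.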

Additional observations from a re-analysis of the deposited data

Results flagged for a closer look

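The effect of LPS on cells with and without earlier IL-4 was compared by the interaction term of limma. It passed for 3 of the 10 genes and 2 of the 24 other pathway genes tested. Of all rows, 4.58% passed above zero and 4.63% below. The interaction was 0.954 on the log2 scale for Cd14, -0.703 for Ticam1 and -0.640 for Irak3. It was 1.03 for Cd180 and -0.391 for Ube2n. The call of Cd14 was lost in 10 of the 12 fits that left out 1 sample each, with adjusted p up to 0.0922. That of Ube2n was lost after median scaling (adjusted p = 0.0617). For Cd180, LPS gave -0.98 (adjusted p = 5.4e-05) without IL-4 and 0.05 (adjusted p = 0.738) after it. Ube2n had 0.55 (adjusted p = 5.68e-05) without IL-4 and 0.16 (adjusted p = 0.0731) after it.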

How the results depend on the processing

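The number of the 10 genes past the threshold stayed within 1.5 times its value under every alternative run. Leaving out 1 sample at a time gave 8 to 9 genes for LPS minus control, 5 to 6 for IL-4 minus control, 9 for IL-4+LPS minus IL-4, 6 to 8 for IL-4+LPS minus LPS and 2 to 3 for the interaction. Of 1080 values for single genes, 1019 kept direction and side of the threshold, 38 fell short of it, 8 newly passed and 15 changed sign, and the cause of these changes was not tested. Those that changed sign were all values that did not pass. Ticam1 in LPS minus control was 0.17 after quantile normalization and 0.20 after median scaling. In IL-4 minus control, quantile normalization gave 0.061 for Tirap and -0.012 for Irak1. Leaving out single samples gave -0.015 to 0.087 for Irak1 in that comparison and -0.021 to 0.33 for Ticam2 in IL-4+LPS minus IL-4. For the interaction it gave -0.14 to 0.075 for Myd88, -0.017 to 0.14 for Irak1 and -0.18 to 0.042 for Irak2. Replicates 2 and 3 only gave 0.014 for Myd88 and 0.056 for Irak2. With the replicate number as a block, Ticam2 also passed in IL-4 minus control (-0.32, adjusted p = 0.0136) and in the interaction (-0.41, adjusted p = 0.045), and the calls of the other 9 genes were as without it. Of the 24 other pathway genes, 13 then fell and 2 rose in IL-4 minus control, where 3183 of 11191 rows fell and 2402 rose. In the blocked interaction 4 of the 24 passed above zero and 2 below, where 1145 and 1095 of all rows did. Over all comparisons, 9 of 12 samples deviated most like those of their own number. Ticam2 in IL-4+LPS minus IL-4 passed after quantile normalization (0.54, adjusted p = 0.0313) and median scaling (0.51, adjusted p = 0.0417). With replicates 2 and 3 only, Ticam1 passed in LPS minus control (-0.20, adjusted p = 0.0105), and Ticam2 passed in IL-4 minus control (-0.41, adjusted p = 0.00131) and in the interaction (-0.36, adjusted p = 0.0195). The call of Ly96 in IL-4 minus control was also lost after median scaling (adjusted p = 0.0524) and by the Tukey test, which also lost that of Ticam2 in LPS minus control. That of Ticam1 in IL-4+LPS minus LPS was also lost by both scalings (adjusted p = 0.0552 and 0.0557), by the Tukey test and with replicates 2 and 3 only (adjusted p = 0.065), and that of Ticam2 with the compared groups alone (adjusted p = 0.0706). The shallowest value of the 10 genes, Irak3 in IL-4 replicate 1, rested on roughly 173 fragments.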
